A study of Mus musculus with 8 samples.

Results

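The genes of bile acid synthesis and conjugation were examined in livers of *Apoe*-/- mice treated with ISOGK or vehicle. These were 10 genes of 16540 in the count table, chosen by symbol: *Cyp7a1* and *Cyp8b1* of the classical pathway, *Cyp27a1*, *Cyp7b1* and *Cyp39a1* of the alternative pathway, *Hsd3b7* and *Akr1d1*, which modify the sterol ring in both pathways, *Slc27a5* and *Baat* of conjugation, and *Cyp2c70* of the muricholic branch. All mice were male, lacked *Apoe*, whose loss raises cholesterol in plasma, and ate a Western diet (a high cholesterol diet in the study's methods) for 7 weeks before treatment. Over the next 8 weeks, 4 mice received intraperitoneal ISOGK (isoginkgetin, a plant biflavonoid that inhibits ATP citrate lyase) at 20 mg/kg per day, and 4 mice received vehicle, which the table's column names give as the solvent DMSO. The age of the mice is not given in the sources used here. One library was made per mouse, and its total counts were 19605286 to 24461854 for vehicle mice and 17457106 to 21626399 for ISOGK mice. The hepatocyte markers all had counts in every library, with albumin (*Alb*) at 123533 ± 4099 CPM (counts per 1000000 after TMM scaling, SD, n = 4) with vehicle and 125411 ± 15527 CPM with ISOGK.

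Bile acids are made from cholesterol in hepatocytes, and their synthesis is a main route by which the body disposes of cholesterol. In the classical pathway CYP7A1 makes the first and rate-limiting step, and CYP8B1 then decides how much of the product becomes cholic acid. In the alternative pathway oxysterols made by enzymes such as CYP27A1 are hydroxylated by CYP7B1 or CYP39A1, and this route feeds mainly chenodeoxycholic acid. Mice turn chenodeoxycholic acid into the more hydrophilic muricholic acids through CYP2C70. SLC27A5 and BAAT join the finished acids to an amino acid such as taurine before they are secreted into bile.

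Vehicle mouse 4 carried skeletal muscle transcripts. The 8 muscle markers, led by *Myh4* (2.53 CPM on average), summed to 78.2 CPM in this mouse, 0 CPM in vehicle mouse 1 and at most 0.576 CPM in the other mice, and every one of the 8 was at 0 in some library. This mouse also had the highest *Cyp7a1* and *Cyp8b1* levels of its group. Without it *Cyp8b1* had a log2 fold change of 1.80 (adjusted p = 0.0105 in edgeR) and *Cyp2c70* one of -0.78 (adjusted p = 0.0440 in edgeR), both called as with all mice. *Akr1d1* was at -1.02 (adjusted p = 0.0522 in edgeR) and *Baat* at 0.38 (adjusted p = 0.0952 in edgeR), close to their log2 fold changes of -0.96 and 0.39 with all mice, but no longer called. The part of muscle tissue in the values of vehicle mouse 4 was not tested.

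ISOGK mouse 1 stood apart from the other ISOGK mice in genes of the circadian clock, several of them named here after their values were seen. The clock output gene *Dbp* was at 10.5 CPM in ISOGK mouse 1 and 0.369 to 0.681 CPM in ISOGK mice 2 to 4, against 6.22 to 26.9 CPM with vehicle. *Nr1d1*, a repressor within the clock, was at 64.9 CPM in ISOGK mouse 1 and 3.56 to 16.5 CPM in ISOGK mice 2 to 4, against 56.6 to 82.6 CPM with vehicle. *Arntl* (BMAL1), an activator of the clock, differed the other way, with 13.9 CPM in ISOGK mouse 1 and 25.6 to 38.4 CPM in ISOGK mice 2 to 4, against 5.61 to 16.6 CPM with vehicle. So for these genes ISOGK mouse 1 lay within the range of the vehicle mice and ISOGK mice 2 to 4 lay outside it, and *Tef*, *Nr1d2*, *Per3* and *Npas2* also had ISOGK mouse 1 nearest to the vehicle mice. Without this mouse *Cyp8b1* had a log2 fold change of 1.76 (adjusted p = 0.00588 in edgeR) and *Baat* one of 0.43 (adjusted p = 0.0411 in edgeR). *Cyp2c70* was at -0.71 (adjusted p = 0.0576 in edgeR) and *Akr1d1* at -0.97 (adjusted p = 0.0590 in edgeR), close to their values with all mice, but no longer called. The part of the clock in the values of ISOGK mouse 1 was not tested. Across all genes, ISOGK mouse 4 lay farthest from the others of its group. Chi-square per gene between its library and theirs was 85.9 to 99.8, against 33.1 to 67.1 among ISOGK mice 1 to 3. It also had the lowest TMM factor, 0.883. Without ISOGK mouse 4 *Baat* was no longer called (adjusted p = 0.0683 in edgeR), while *Cyp8b1*, *Akr1d1* and *Cyp2c70* were.

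Members of the pathway moved in both directions with ISOGK. *Cyp8b1* and *Baat* were higher, and *Akr1d1* and *Cyp2c70* were lower, in edgeR's quasi-likelihood test at an adjusted p under 0.05. All 10 genes passed the filter on low counts, with 569 to 21936 counts per gene and library. The 2 members called higher compare with 4.11% of all 12307 tested genes, and the 2 called lower with 3.44%. With a log2 fold change over 1 required as well, *Cyp8b1* was called higher (0.999% of all tested genes were), and the called falls of *Akr1d1* and *Cyp2c70* were smaller than that size, which 0.626% of all tested genes reached. In 4 members the mice of the groups did not overlap, against 15.3% of all tested genes. The median log2 fold change over the 10 members was 0.02, and over all tested genes it was 0.00176. Scaling by library size alone moved the latter to -0.13, so each change here is relative to TMM scaling, under which that median is near 0.

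**Figure D1:**
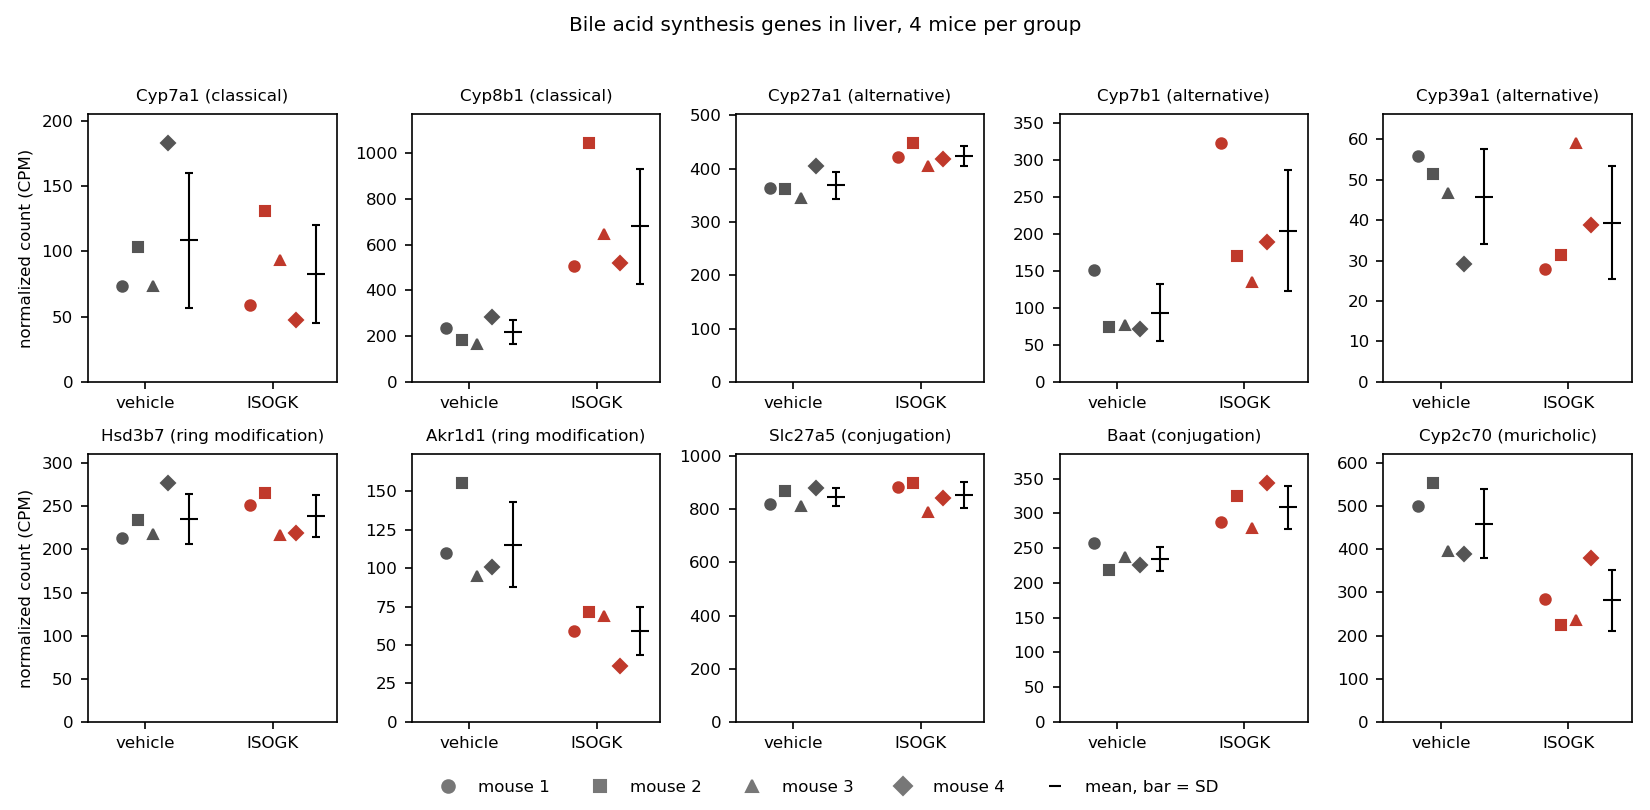
Normalized counts (CPM, linear axis from 0, a scale of its own in each panel) of the 10 bile acid genes in each liver, with vehicle mice in grey and ISOGK mice in red, symbols for the mouse number within a group, and the mean with its SD beside each group. All ISOGK mice lie above all vehicle mice for *Cyp8b1* and *Baat*, below them for *Akr1d1* and *Cyp2c70*, and the groups overlap for the other 6 genes.

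The promoters of *Cyp8b1*, *Cyp2c70* and *Akr1d1*, 3 of the 4 members called, are shown with the motifs that were searched in them, and that of *Baat* is not. RefSeq promoters (GRCm38.p6, 250 bases before to 50 bases after the gene's start) were matched for 5 of the 10 members, *Cyp8b1*, *Cyp2c70*, *Akr1d1*, *Cyp27a1* and *Hsd3b7*. Both strands were searched for CAAGGNCA, the core motif of the nuclear receptor LRH-1 (*Nr5a2*), for AGGTCA, the motif shared by many nuclear receptors, and for AGGNCA repeated with 1 base between. These motifs can overlap, since the first may hold the second. The sequences run 5′ to 3′ on the strand of the gene, and capitals mark the matches.
*Cyp8b1*, chr9:121916256-121916555, minus strand: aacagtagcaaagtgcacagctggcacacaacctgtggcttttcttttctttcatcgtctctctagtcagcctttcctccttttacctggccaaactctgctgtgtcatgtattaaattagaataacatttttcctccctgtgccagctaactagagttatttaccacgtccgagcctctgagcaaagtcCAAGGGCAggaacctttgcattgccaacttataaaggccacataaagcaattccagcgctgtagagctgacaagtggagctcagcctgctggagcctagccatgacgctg
*Cyp2c70*, chr19:40187237-40187536, minus strand: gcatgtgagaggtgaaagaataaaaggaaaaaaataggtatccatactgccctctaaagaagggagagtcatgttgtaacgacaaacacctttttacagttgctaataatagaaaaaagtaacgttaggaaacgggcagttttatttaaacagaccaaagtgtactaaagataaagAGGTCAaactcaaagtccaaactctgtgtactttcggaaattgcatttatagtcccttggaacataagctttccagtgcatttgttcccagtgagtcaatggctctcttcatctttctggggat
*Akr1d1*, chr6:37529923-37530222, plus strand: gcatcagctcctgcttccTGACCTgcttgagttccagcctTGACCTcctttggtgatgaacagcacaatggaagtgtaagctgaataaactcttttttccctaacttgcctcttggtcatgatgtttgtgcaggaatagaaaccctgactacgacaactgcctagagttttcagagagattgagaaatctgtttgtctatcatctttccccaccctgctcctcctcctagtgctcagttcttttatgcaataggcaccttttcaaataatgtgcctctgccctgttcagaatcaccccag
The *Cyp8b1* promoter held 1 LRH-1 core, beginning at position -60 from the start, a motif that 6.71% of all 32851 promoters held. In the *Cyp2c70* promoter an AGGTCA began at position -74, and in the *Akr1d1* promoter it was found at positions -232 and -210 on the opposite strand, while 16.3% of all promoters held it. The repeated motif was in 0.381% of all promoters and in none of these 3. Neither *Cyp27a1* nor *Hsd3b7* had a match in this window. *Nr5a2* itself, its level named after its values were seen, was at 44.8 ± 4.31 CPM with vehicle and 36.4 ± 9.66 CPM with ISOGK (SD, n = 4). The groups overlapped, with a log2 fold change of -0.30 (adjusted p = 0.292 in edgeR). A match describes the letters and was not tested as a binding site.

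Of the classical pathway, 1 gene was called and the other was not. *Cyp7a1* (chr4:6265612-6275633 in GRCm38, minus strand), the rate-limiting hydroxylase, had 73.5, 104, 73.8 and 183 CPM in vehicle mice 1 to 4 and 58.9, 131, 93.6 and 47.7 CPM in ISOGK mice 1 to 4. Vehicle mouse 4 was the highest and ISOGK mouse 4 the lowest of all 8, and the groups overlapped. The log2 fold change of *Cyp7a1* was -0.39 (standard error 0.42, 95% interval -1.37 to 0.59, adjusted p = 0.626 in edgeR). That interval is wide and holds a large fall as well as a modest rise. Without vehicle mouse 4 the log2 fold change was -0.02 (adjusted p = 0.987 in edgeR), and without ISOGK mouse 2 it was -0.70 (adjusted p = 0.385 in edgeR).

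*Cyp8b1* (chr9:121914356-121916305, minus strand, a single exon) encodes the sterol hydroxylase that directs intermediates to cholic acid. Its level was 236, 183, 167 and 284 CPM in vehicle mice 1 to 4 and 506, 1046, 647 and 519.5 CPM in ISOGK mice 1 to 4. Every ISOGK mouse lay above every vehicle mouse, and ISOGK mouse 2 was the highest. The mean went from 218 ± 53.2 to 679.5 ± 252 CPM (SD over 4 mice per group), a 3.12-fold rise. The log2 fold change was 1.64 (standard error 0.26, 95% interval 1.05 to 2.23, adjusted p = 0.00741 in edgeR). The call held in all 16 alternatives, with log2 fold changes from 1.36 to 1.80 and adjusted p up to 0.0422. Vehicle mouse 4 and ISOGK mouse 2 were the highest of their groups for both genes of the classical pathway, and the deviations of *Cyp7a1* and *Cyp8b1* from their group means had a Pearson r of 0.821 over the 8 mice (no test made).

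**Figure D2:**
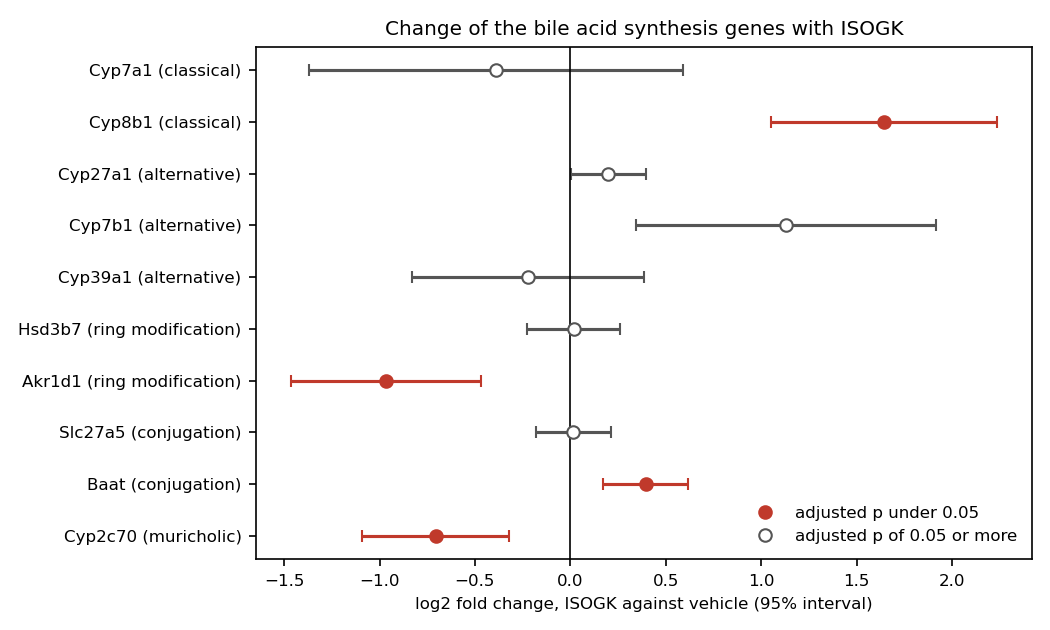
Log2 fold change of each bile acid gene, ISOGK against vehicle, as points with 95% intervals from edgeR's quasi-likelihood fit (n = 4 mice per group), filled red where the adjusted p was under 0.05. *Cyp8b1* (1.64) and *Baat* (0.39) lie right of 0, and *Akr1d1* (-0.96) and *Cyp2c70* (-0.70) lie left of it. Under TMM scaling the intervals of *Cyp7b1* and *Cyp27a1* lie above 0, although their adjusted p in edgeR were 0.0889 and 0.200.

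None of the 3 alternative pathway genes passed the test, while 2 of them had an unadjusted p under 0.05 in edgeR. *Cyp27a1* (chr1:74713574-74737892, plus strand) encodes a mitochondrial hydroxylase that starts this pathway and also oxidizes the side chain in the classical pathway. It had 363, 362, 346 and 405 CPM in vehicle mice 1 to 4 and 423, 449, 404 and 418 CPM in ISOGK mice 1 to 4. Only vehicle mouse 4 reached the level of the ISOGK mice, at the lower end of their range. Its log2 fold change of 0.20 (standard error 0.09, adjusted p = 0.200 in edgeR) had a 95% interval of 0.00 to 0.40. With library size alone the log2 fold change of *Cyp27a1* was 0.07 (adjusted p = 0.664 in edgeR). The group SD was 25.2 CPM with vehicle and 18.7 CPM with ISOGK. *Cyp39a1* (chr17:43667425-43751431, plus strand), which hydroxylates another oxysterol, was the least abundant member and ranged from 29.2 to 55.8 CPM with vehicle and from 27.9 to 59.1 CPM with ISOGK. Its log2 fold change was -0.22 (95% interval -0.83 to 0.39, adjusted p = 0.665 in edgeR), between -0.50 without ISOGK mouse 3 and -0.09 without ISOGK mouse 1.

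*Cyp7b1* (chr3:18071950-18243338, minus strand), the oxysterol hydroxylase of the alternative pathway, stood at 151, 74.6, 77.3 and 71.8 CPM in vehicle mice 1 to 4 and at 323, 171, 135 and 189 CPM in ISOGK mice 1 to 4. Mouse 1 was the highest of its group in both groups, and vehicle mouse 1 alone lay above an ISOGK mouse, mouse 3. The means were 93.6 ± 38.2 and 204.5 ± 82.4 CPM (SD, n = 4 per group). The log2 fold change was 1.13 (standard error 0.34, 95% interval 0.34 to 1.91), and the edgeR adjusted p of 0.0889 missed the threshold. Without vehicle mouse 1 the log2 fold change was 1.46 (adjusted p = 0.0248 in edgeR). DESeq2's Wald test gave an adjusted p of 0.0341 for *Cyp7b1*, limma-voom one of 0.0374, and edgeR without the robust option one of 0.0425. Its adjusted p lay between 0.00154 and 0.201 in the 16 alternatives.

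*Cyp2c70* (chr19:40153353-40187333, minus strand), which makes muricholic acids in mice, fell. Its level was 499, 554, 396 and 389 CPM in vehicle mice 1 to 4 and 286, 225, 237 and 381 CPM in ISOGK mice 1 to 4. All ISOGK mice lay below all vehicle mice, and ISOGK mouse 4 came close to the lowest vehicle mouse. The means were 460 ± 80.7 and 282 ± 71.0 CPM (SD, n = 4 per group), and the log2 fold change was -0.70 (standard error 0.18, 95% interval -1.09 to -0.32, adjusted p = 0.0358 in edgeR). The call rested on most of the mice being kept. The edgeR adjusted p of *Cyp2c70* was 0.0949 without vehicle mouse 1, 0.110 without vehicle mouse 2, 0.0576 without ISOGK mouse 1, 0.0903 without ISOGK mouse 2 and 0.0654 without ISOGK mouse 3. The direction was kept in all 16 alternatives, with log2 fold changes from -0.88 to -0.60. No stretch of 50 bases in its annotated transcripts was shared with another gene's transcripts, the other *Cyp2c* genes included.

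Of the enzymes that modify the ring, 1 fell. *Akr1d1* (chr6:37530173-37568815, plus strand), the reductase that gives bile acids their bent ring system, had 110, 156, 94.98 and 101 CPM in vehicle mice 1 to 4 and 59.3, 71.4, 69.0 and 36.7 CPM in ISOGK mice 1 to 4. The groups did not overlap, vehicle mouse 2 was the highest and ISOGK mouse 4 the lowest. Its mean went from 115 ± 27.6 to 59.1 ± 15.8 CPM (SD over 4 mice per group), with a log2 fold change of -0.96 (standard error 0.22, 95% interval -1.46 to -0.47, adjusted p = 0.0322 in edgeR). Leaving out vehicle mouse 1, vehicle mouse 2, vehicle mouse 4 or ISOGK mouse 1 gave edgeR adjusted p of 0.0691, 0.0666, 0.0522 and 0.0590 for *Akr1d1*. Its log2 fold change was between -1.08 and -0.79 in all 16 alternatives. *Hsd3b7* (chr7:127800604-127803802, plus strand), the dehydrogenase that acts before it, ranged from 213 to 277 CPM with vehicle and from 217 to 266 CPM with ISOGK. The 95% interval of its log2 fold change was -0.23 to 0.26 (adjusted p = 0.949 in edgeR). Its counts are uncertain, since 83.1% of the 50-base stretches in its annotated transcripts also lie in transcripts of other genes, *Gm49388* on the same strand and *9430064I24Rik* on the opposite strand, and the use of strand in counting is not given in the sources used here.

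Of the conjugation enzymes, 1 rose. *Slc27a5* (chr7:12988346-12998192, minus strand) activates bile acids with coenzyme A, and *Baat* (chr4:49489422-49506557, minus strand) joins the activated acids to an amino acid. *Baat* had 258, 218, 237 and 226 CPM in vehicle mice 1 to 4 and 287, 325, 278 and 344 CPM in ISOGK mice 1 to 4. The groups did not overlap, and the gap between them was small beside the range within the ISOGK group. Its mean went from 235 ± 17.4 to 309 ± 31.0 CPM (SD over 4 mice per group), a 1.31-fold rise with a log2 fold change of 0.39 (standard error 0.10, 95% interval 0.17 to 0.62, adjusted p = 0.0376 in edgeR). In 8 of 16 alternatives the call of *Baat* was lost, while its log2 fold change was 0.34 to 0.44 with each mouse left out and 0.26 with library size alone. Leaving out vehicle mice 1, 2, 3 or 4 gave edgeR adjusted p of 0.0513, 0.125, 0.0909 and 0.0952, leaving out ISOGK mouse 2 or 4 gave 0.0917 and 0.0683, and scaling by library size alone gave 0.104. *Slc27a5*, the most abundant member per length, ranged from 810 to 881 CPM with vehicle and from 790 to 899.5 CPM with ISOGK, with a 95% interval of its log2 fold change of -0.18 to 0.21 (adjusted p = 0.943 in edgeR).

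Levels between genes were compared per kilobase of annotated exon (CPM per kb). With vehicle, *Slc27a5* led with 346 ± 14.2 CPM per kb (SD, n = 4), followed by *Cyp2c70* with 232 ± 40.8 and *Cyp27a1* with 170 ± 11.6 CPM per kb, and the mice of these neighbours in the order did not overlap. *Baat* (121 ± 8.98), *Cyp8b1* (112 ± 27.3) and *Hsd3b7* (85.1 ± 10.5) came next, and *Cyp8b1* overlapped with both of the others. *Cyp7b1* (43.2 ± 17.6), *Akr1d1* (39.9 ± 9.54), *Cyp7a1* (26.0 ± 12.4) and *Cyp39a1* (14.999 ± 3.83 CPM per kb) were lowest, each overlapping with the next.

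With ISOGK the order changed below *Slc27a5*, which stayed the highest. *Cyp8b1* rose from the fifth to the second place with 348 ± 129 CPM per kb (SD, n = 4) and overlapped with *Slc27a5* at 349.9 ± 20.1 CPM per kb. *Cyp27a1* (195 ± 8.60) stood apart from both neighbours, and *Baat* (159 ± 16.0), *Cyp2c70* (142 ± 35.8), *Cyp7b1* (94.4 ± 38.0) and *Hsd3b7* (86.1 ± 8.81 CPM per kb) each overlapped with the next. *Cyp2c70* moved from the second to the fifth place, and *Cyp7b1* passed *Hsd3b7*, with which it overlapped. *Akr1d1* (20.4 ± 5.47), *Cyp7a1* (19.8 ± 9.01) and *Cyp39a1* (12.9 ± 4.58 CPM per kb) were again lowest. The coefficient of variation between mice was 47.7% and 45.4% for *Cyp7a1* and 40.8% and 40.3% for *Cyp7b1* (vehicle and ISOGK), against 4.11% and 5.74% for *Slc27a5*.

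To compare the branches without scaling between libraries, the log2 ratio of the raw counts of a pair of genes was formed within each mouse. A ratio as such depends on the lengths of the genes, so only its difference between groups is read. The log2 ratio of *Cyp8b1* to *Cyp7a1* was 1.68, 0.82, 1.18 and 0.63 in vehicle mice 1 to 4 and 3.10, 3.00, 2.79 and 3.44 in ISOGK mice 1 to 4. Every ISOGK mouse lay above every vehicle mouse, and ISOGK mouse 4 was the highest although its *Cyp8b1* was not. The difference of the means was 2.00 on the log2 scale, a 4.01-fold higher ratio (two-sided exact permutation test, p = 0.0286, adjusted p = 0.0857 over 6 ratios). This p is the smallest that 4 mice against 4 allow.

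The log2 ratio of *Cyp2c70* to *Cyp8b1* was 1.08, 1.60, 1.24 and 0.45 in vehicle mice 1 to 4 and -0.82, -2.22, -1.45 and -0.45 in ISOGK mice 1 to 4. Here the groups did not overlap either, with ISOGK mouse 2 the lowest. The muricholic gene was thus lower relative to the cholic acid gene by a difference of -2.33 on the log2 scale (two-sided exact permutation test, p = 0.0286, adjusted p = 0.0857 over 6 ratios). Neither ratio passed 0.05 after adjustment, which with 6 ratios no p of this design reaches unless at least 4 of them are at the smallest p. For *Cyp7b1* to *Cyp7a1* the difference was 1.52 with overlapping groups, the vehicle mice at -1.35 to 1.04 and the ISOGK mice at 0.38 to 2.46 (two-sided exact permutation test, p = 0.114, adjusted p = 0.229). For the other 3 ratios the groups overlapped. Their differences were 0.60 for *Cyp27a1* to *Cyp7a1*, 0.49 for *Cyp8b1* to *Cyp7b1* and -0.32 for *Cyp2c70* to *Cyp7a1*, with exact permutation p of 0.257, 0.371 and 0.686.

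**Figure D3:**
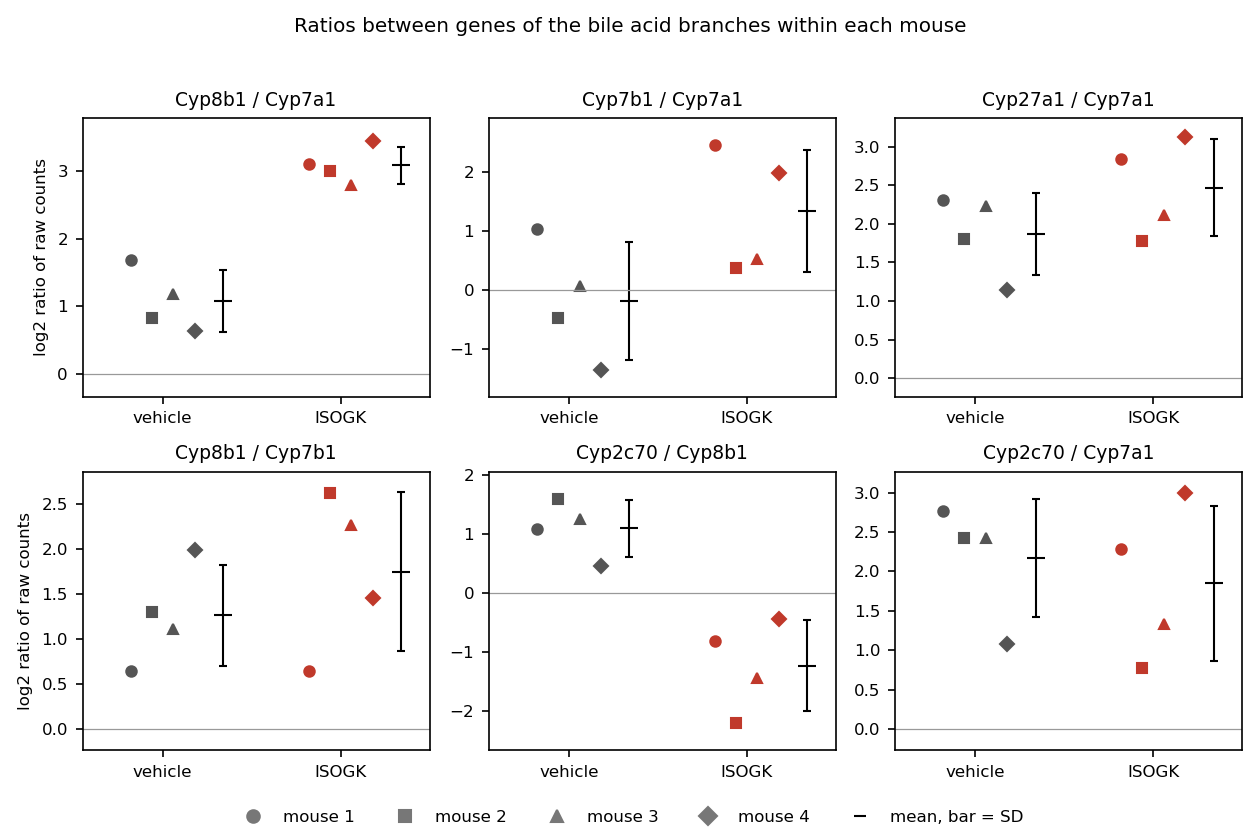
Log2 ratio of the raw counts of 2 genes within each mouse, for the 6 ratios tested, with vehicle mice in grey and ISOGK mice in red, symbols for the mouse number within a group, and the mean with its SD beside each group. The groups are apart for *Cyp8b1* to *Cyp7a1* (difference 2.00) and *Cyp2c70* to *Cyp8b1* (difference -2.33) and overlap for the other 4 ratios.

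As a description without a test, the levels per kb of the 6 genes of the classical, alternative and muricholic branches were summed within each mouse. *Cyp7a1* and *Cyp8b1* of the classical pathway held 21.5%, 19.3%, 20.1% and 30.8% of this sum in vehicle mice 1 to 4 and 35.5%, 58.1%, 47.8% and 36.4% in ISOGK mice 1 to 4. *Cyp2c70* held 39.0%, 45.4%, 39.0% and 31.9% in vehicle mice 1 to 4 and 18.7%, 11.6%, 16.1% and 25.2% in ISOGK mice 1 to 4. The shares of both branches were without overlap between groups, higher for the classical and lower for the muricholic branch. *Cyp27a1*, *Cyp7b1* and *Cyp39a1* of the alternative pathway together held 35.4% to 40.9% with vehicle and 30.3% to 45.8% with ISOGK, with overlap. Their summed level itself was 210 to 255 CPM per kb with vehicle and 268 to 353 CPM per kb with ISOGK, higher in every ISOGK mouse than in every vehicle mouse (mean 228 ± 19.6 and 302 ± 36.1 CPM per kb, SD, n = 4). That separation rests on TMM scaling, since with library size alone vehicle mouse 1 would lie slightly above ISOGK mouse 4. The total that the shares refer to, with *Cyp8b1* in it, was also higher in every ISOGK mouse. Since *Cyp8b1* alone held most of the classical sum, this share follows that gene and says little of *Cyp7a1*.

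Beyond the members, genes for shortening the sterol side chain and for other steps of primary bile acid synthesis were described. Of 9 genes on a list of side chain and other primary bile acid enzymes, 8 were tested, with a median log2 fold change of 0.40. Higher were 5 of them, against 4.11% of all tested genes, and the other 3 did not pass. Named after their values were seen, those were *Acox2*, the side chain oxidase, at a log2 fold change of -0.20, *Scp2* at 0.26 and *Cyp46a1* at -0.14 (adjusted p of 0.276, 0.153 and 0.841 in edgeR). Without vehicle mouse 2, 3 or 4 or ISOGK mouse 1 or 2, and with library size alone, 3 were higher. *Abcd3*, which carries bile acid precursors into peroxisomes, had 295, 267, 254 and 271 CPM in vehicle mice 1 to 4 and 425, 543, 499 and 391 CPM in ISOGK mice 1 to 4. It was higher in all ISOGK mice, with a log2 fold change of 0.77 (standard error 0.12, adjusted p = 0.00269 in edgeR). *Hsd17b4*, a peroxisomal oxidation enzyme, was up by a log2 fold change of 0.47 (standard error 0.09, adjusted p = 0.00927 in edgeR), and *Acot8*, a peroxisomal thioesterase, by 0.87 (standard error 0.15, adjusted p = 0.00607 in edgeR).

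Genes that control bile acid synthesis were described in the same way. Of 16 regulators on the list, all tested, 1 was higher and 15 did not pass, with a median log2 fold change of -0.11. Among all tested genes, 4.11% were called higher and 3.44% lower. The nuclear receptor gene *Nr1i3* (CAR) went from 74.5 ± 6.35 to 102 ± 16.7 CPM (SD over 4 mice per group), which is a log2 fold change of 0.45 (adjusted p = 0.0415 in edgeR). That call was lost in 7 of 16 alternatives, with an edgeR adjusted p of 0.114, 0.125, 0.0553 and 0.0867 without vehicle mice 1 to 4, 0.0601 and 0.0725 without ISOGK mice 3 and 4, and 0.153 with library size alone. *Klb*, the co-receptor through which intestinal FGF15 represses *Cyp7a1*, had 45.3, 48.8, 46.6 and 53.5 CPM in vehicle mice 1 to 4 and 31.2, 39.5, 44.2 and 37.7 CPM in ISOGK mice 1 to 4. Its groups did not overlap, yet its log2 fold change of -0.35 had an edgeR adjusted p of 0.0780, which was 0.0278 without ISOGK mouse 3, 0.0356 with library size alone and 0.0469 in DESeq2. *Prox1*, a corepressor of *Cyp7a1*, had a log2 fold change of -0.35 with overlapping groups (adjusted p = 0.289 in edgeR, and 0.0382 without vehicle mouse 3).

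Among the transporters of bile acids and phospholipids, 9 of 11 listed genes were tested, with 1 higher, 1 lower and 7 that did not pass. Over all tested genes, 4.11% were called higher and 3.44% lower. *Abcb11*, the bile salt export pump, had 556, 636, 489 and 521 CPM in vehicle mice 1 to 4 and 282, 219, 333 and 212 CPM in ISOGK mice 1 to 4. *Abcb4*, which moves phosphatidylcholine into bile, had 242, 187, 209 and 196 CPM in vehicle mice 1 to 4 and 369, 394, 378 and 313 CPM in ISOGK mice 1 to 4. These genes thus moved apart, both without overlap, with log2 fold changes of -1.07 for *Abcb11* (adjusted p = 0.00183 in edgeR) and 0.80 for *Abcb4* (adjusted p = 0.00178 in edgeR). *Slco1a1*, an uptake carrier, had a log2 fold change of -0.79 (adjusted p = 0.110 in edgeR, 0.0234 without ISOGK mouse 1 and 0.0119 in DESeq2), and without ISOGK mouse 1 the list had 3 lower genes.

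**Figure D4:**
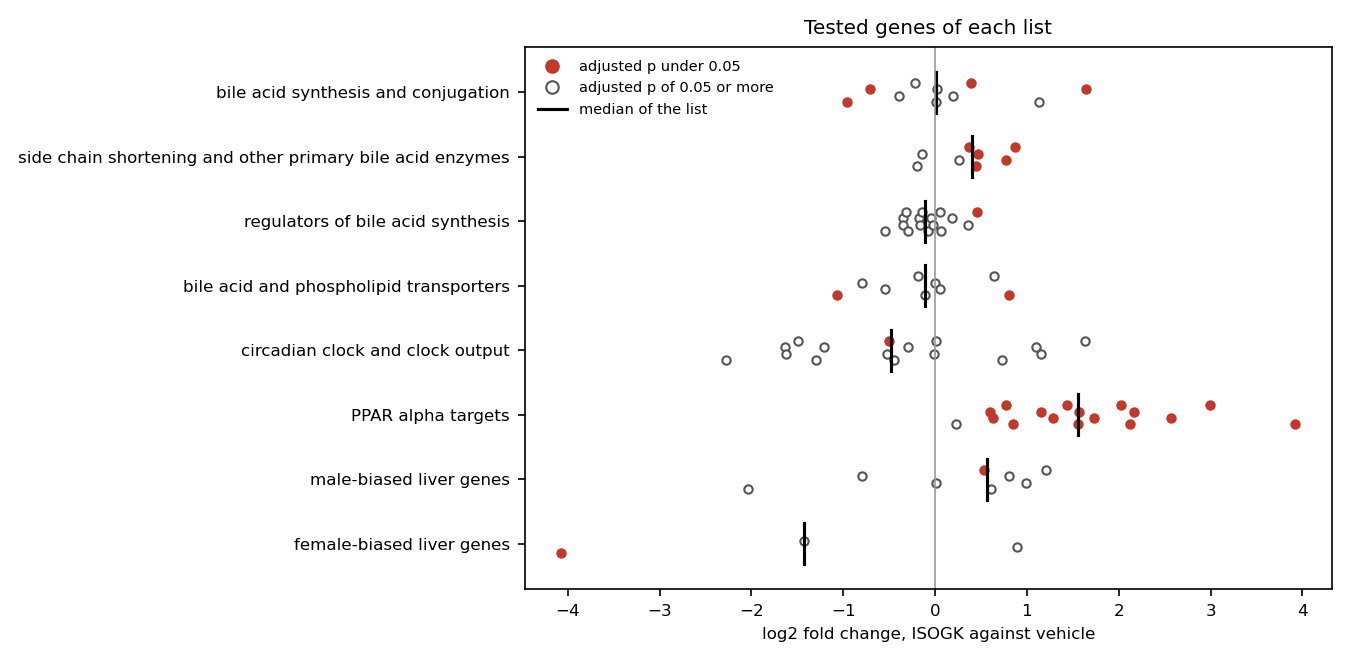
Log2 fold change, ISOGK against vehicle, of every tested gene on each list (n = 4 mice per group), filled red where the edgeR adjusted p was under 0.05, with a black line at the median of the list. The bile acid genes spread to both sides of 0 with a median of 0.02, while 16 of the 17 PPAR alpha targets were higher with a median of 1.56.

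Lists of genes under programs known to touch bile acid synthesis were described in the same livers. Of 17 targets of the fatty acid receptor PPAR alpha, 16 were higher, against 4.11% of all tested genes. The median log2 fold change of the 17 was 1.56. The smallest p were those of *Ehhadh* (log2 fold change 2.57), *Cyp4a14* (2.12) and *Cyp4a10* (2.02), with edgeR adjusted p of 4.65e-07, 1.02e-05 and 6.10e-05, and reads of the last pair could have been split between close copies. Of 16 clock genes, 1 was lower, against 3.44% of all tested genes, and 15 did not pass. An unadjusted p under 0.05 in edgeR was found for 10 of the 16, and for 2973 of all 12307 tested genes. The clock output factor *Hlf* fell by 0.51 on the log2 scale (adjusted p = 0.00607 in edgeR). *Npas2* and *Ciart* had log2 fold changes of 1.63 and -1.62 (adjusted p = 0.0537 and 0.0957 in edgeR), and in ISOGK mouse 1 *Ciart* had 1.81 CPM, against 0.264 to 0.452 CPM in ISOGK mice 2 to 4. With all mice kept, *Npas2* passed in DESeq2 (adjusted p = 0.000810) and in edgeR without the robust option (adjusted p = 0.0343), and *Ciart* passed in DESeq2 (adjusted p = 0.0246) and limma-voom (adjusted p = 0.0480). Without ISOGK mouse 1 the clock list had 4 higher and 8 lower genes, with edgeR adjusted p of 0.00190 for *Npas2* and 0.00404 for *Ciart*, whose log2 fold change was then -2.65. In the other alternatives it had up to 2 higher and 6 lower genes.

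Of 8 male-biased liver genes, 1 was higher, against 4.11% of all tested genes, and 7 did not pass. The called gene, *Cyp2d9*, had a log2 fold change of 0.53 (adjusted p = 0.0494 in edgeR, lost in 12 of 16 alternatives). *Mup20* was at 0.61 and *Elovl3* at 0.99 (adjusted p = 0.0515 and 0.0635 in edgeR). *Hsd3b5*, named after its values were seen, had the largest difference on the list and ran the other way. It was at 79.5, 51.4, 83.5 and 70.9 CPM in vehicle mice 1 to 4 and 38.7, 12.7, 11.2 and 6.60 CPM in ISOGK mice 1 to 4, the list's only gene without overlap. Its log2 fold change was -2.04 (adjusted p = 0.0708 in edgeR, 0.00503 in DESeq2, 0.00698 in limma-voom, 0.0183 without the robust option and 0.000475 without ISOGK mouse 1). Without any single mouse other than ISOGK mouse 3 the call of *Cyp2d9* was lost, with an adjusted p up to 0.135. Without ISOGK mouse 3 the list had 5 higher genes, *Mup20* and *Elovl3* among them (edgeR adjusted p of 0.0147 and 0.0386), without ISOGK mouse 1 it had 2 lower genes, and without vehicle mouse 1 *Elovl3* passed with 0.0291. With all mice, DESeq2 called *Mup20* (adjusted p = 0.0106) and *Elovl3* (adjusted p = 0.00138), and *Elovl3* also passed in limma-voom (adjusted p = 0.0347) and in edgeR without the robust option (adjusted p = 0.0380). The list also holds *Slco1a1*, described among the transporters. On the female-biased list 3 of 12 genes were tested, and *Cyp2b9* was lower with a log2 fold change of -4.07 (adjusted p = 0.00322 in edgeR), although its reads could have been split with other *Cyp2b* genes. *Cux2* had a log2 fold change of 0.89 and did not pass (adjusted p = 0.448 in edgeR). The part of these programs in the changes of the bile acid genes was not tested.

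Bulk RNA cannot tell fewer cells of a type from less RNA per cell, and summed marker levels share this limit. The other cell types were described by such sums. Of 6 Kupffer cell markers, led by *Cd5l* (554 CPM on average), the sum was 1195, 1037, 1105 and 924 CPM in vehicle mice 1 to 4 and 958, 733, 809 and 738 CPM in ISOGK mice 1 to 4, with overlap. The median log2 fold change of this list was -0.65, and *Cd5l* was lower in every ISOGK mouse, at -0.39 (adjusted p = 0.0639 in edgeR, 0.0150 in DESeq2, 0.0160 with library size alone and 0.0337 without ISOGK mouse 1). The 5 cholangiocyte markers, led by *Spp1* (30.3 CPM), summed to 27.5 to 34.8 CPM with vehicle and 28.2 to 69.1 CPM with ISOGK. *Sox9*, named after its values were seen, was the 1 of the 5 called higher (adjusted p = 0.0494 in edgeR), against 4.11% of all tested genes. That call was lost without any single mouse (adjusted p of 0.0745 to 0.140 in edgeR). The log2 fold changes of all 5 were above 0, with a median of 0.61, and 4 had an unadjusted p under 0.05 in edgeR. *Spp1* passed without ISOGK mouse 4, at 0.81 (adjusted p = 0.0248 in edgeR). The 5 endothelial markers, led by *Stab2* (81.6 CPM), summed to 255 to 288 and 256 to 273 CPM. For the 5 markers of stellate cells and fibroblasts, led by *Dcn* (208 CPM), the sums were 266 to 369 and 204 to 396 CPM, so the sums of these 4 cell types overlapped between groups. Their part in the changes of the bile acid genes was not tested. All markers of these 4 lists had counts in every library, and the 7 hepatocyte markers summed to 142999 to 155274 CPM with vehicle and 131323 to 168482 CPM with ISOGK. *Cfd*, the adipocyte marker that could be measured of 4 listed, had at most 0.581 CPM in any mouse. The 5 acinar markers, led by *Cela1* (3.56 CPM), summed to 2.22 to 5.07 CPM with vehicle and 2.26 to 5.07 CPM with ISOGK, and *Cpa1*, *Pnlip*, *Cel* and *Ctrb1* were at 0 in some library.

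For *Cyp7a1*, *Cyp8b1*, *Cyp7b1* and *Cyp2c70*, the genes whose log2 CPM deviated from the group mean most alike over the 8 mice were listed as a description. Among 6814 genes of at least 10 CPM, *Mfn2*, *Sec14l2* and *Miga2* were most like *Cyp8b1* (Pearson r of 0.988, 0.972 and 0.970). *Edem1*, *Adam11* and *Podxl* were most like *Cyp2c70* (0.986, 0.967 and 0.965), *Tpcn1*, *Add1* and *Abl1* most like *Cyp7a1* (0.979, 0.973 and 0.964), and *Capg*, *Irak1* and *Rhbdd2* most like *Cyp7b1* (0.939, 0.936 and 0.935). All of these Pearson r are the highest of 6814 values for each member, from 8 libraries that share depth and tissue. By rank (Spearman), the correlation was lower for *Rhbdd2* (0.643), *Irak1* (0.667) and *Adam11* (0.786), and 0.857 to 0.976 for the rest. *Tpcn1* was lower by a log2 fold change of -0.46 (adjusted p = 0.0461 in edgeR, lost in 10 of 16 alternatives, among them each of the 8 with a mouse left out other than ISOGK mouse 2, with an adjusted p up to 0.122) while *Cyp7a1* was not called. *Abl1*, lower without overlap, was at -0.23 and *Add1* at 0.10 (adjusted p of 0.132 and 0.583 in edgeR), and *Abl1* passed with library size alone (adjusted p = 0.0481 in edgeR). Of the genes like *Cyp7b1*, *Capg* had a log2 fold change of -0.62 (adjusted p = 0.0580 in edgeR, 0.0203 in DESeq2, 0.0235 with library size alone and 0.0120 without ISOGK mouse 1), the other way from *Cyp7b1* itself, and *Irak1* and *Rhbdd2* had 0.06 and 0.11 (adjusted p of 0.670 and 0.648 in edgeR), values below 0 with library size alone, as for *Add1*. All 3 genes like *Cyp8b1* had log2 fold changes above 0, with *Mfn2* at 0.28, *Sec14l2* at 0.34 and *Miga2* at 0.29 (adjusted p of 0.101, 0.0708 and 0.354 in edgeR). *Mfn2* and *Sec14l2* did so without overlap, and *Sec14l2* passed in DESeq2 (adjusted p = 0.0237). *Edem1* had one of -0.17 (adjusted p = 0.436 in edgeR), and *Podxl* did not pass at 0.43 (adjusted p = 0.118 in edgeR), while *Adam11* alone among the 3 like *Cyp2c70* was called, at a log2 fold change of -1.28 (adjusted p = 0.00242 in edgeR).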

How the data were processed

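Liver mRNA was measured in 4 vehicle-treated and 4 ISOGK-treated mice, and columns were matched to mice by their labels. The authors aligned single-end reads with HISAT2 (genome build mm10 per the labels) and computed the deposited raw counts per gene with StringTie, without normalization. The annotation release and the use of strand are not given in the sources used here. All 16540 genes were filtered with filterByExpr of edgeR 4.0.16 in R 4.3.3 (minimum count 10, minimum total 15), scaled by TMM and tested with the robust quasi-likelihood test, with Benjamini-Hochberg adjustment over 12307 genes. CPM used the TMM factors, and standard errors were derived from the F statistic. Branch ratios were tested by two-sided exact permutation in Python 3.11.15. Alternatives were DESeq2 1.42.0, limma-voom (limma 3.58.1), other scalings, filters and dispersion options, the replicate number as a block, and each mouse left out in turn. Exon lengths came from GENCODE M21 (GRCm38).

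Genes named by the rule were all 10 members, up to 3 genes with the smallest p of each pathway list, the most abundant gene of each marker list and 3 genes most like each of 4 members. The members and lists were chosen with earlier results of these data known. No molecular identifiers were described, so copies made in amplification cannot be told from separate molecules. Total counts ranged from 17457106 to 24461854.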

Additional observations from a re-analysis of the deposited data

Results flagged for a closer look

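Of 118 groups of 4 mice examined for a mouse far from the others, 7 stood out by Dixon's criterion, where chance gives 5.9. Among the members this was 1 of 20 groups. Only the genes named by the rule, the ratios, the library totals and the numbers of genes detected were examined in this way. Clock genes other than these, in which ISOGK mouse 1 also stood apart, are therefore not in the count. In vehicle mouse 1, *Cyp7b1* was at 151 CPM and in its group otherwise at 71.8 to 77.3 CPM, with a gap of 0.930 of the range of the group. The number of genes detected in vehicle mouse 4 was 15369, against 14997 to 15042 (gap 0.879). The muscle gene *Myh4* had 20.1 CPM in vehicle mouse 4 and 0 CPM in the other vehicle mice (gap 1). *Ciart* had 1.81 CPM in ISOGK mouse 1, against 0.264 to 0.452 CPM (gap 0.878). *Hsd17b4* had 545 CPM in ISOGK mouse 3, against 536 to 537 CPM (gap 0.872), where the others were very close to each other. *Abl1* had 30.6 CPM in vehicle mouse 4, against 27.9 to 28.3 CPM (gap 0.836). *Irak1* had 53.3 CPM in vehicle mouse 1, against 50.2 to 50.7 CPM (gap 0.836). The last pair were named for varying like *Cyp7a1* and *Cyp7b1*, so a mouse far from the others is shared with those members by the way they were chosen.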

How the results depend on the processing

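Among the members, 2 were called higher and 2 lower. Called higher were 1 member with scaling by library size alone, 3 with DESeq2, limma-voom and edgeR without the robust option, and 1 to 2 with each mouse left out, and called lower were 0 to 2 with each mouse left out. With a log2 fold change over 1 required, 1 higher and 0 lower members became 2 higher with DESeq2, limma-voom and edgeR without the robust option, 1 lower with library size alone, and 1 to 2 higher and 0 to 1 lower with each mouse left out. Fitting the replicate number as a block called 1 member lower (*Akr1d1*), and 2 members higher with a log2 fold change over 1, *Cyp8b1* and *Cyp7b1* (adjusted p = 0.0422 and 0.00154 in edgeR), while *Baat* (0.0705) and *Cyp2c70* (0.0635) missed the threshold. The block also called *Slco1a1* (0.00261), *Mup20* (0.0239), *Elovl3* (0.0313), *Ciart* (0.0239) and *Capg* (0.0225). Over all genes the block gave 411 higher and 416 lower genes. Deviations of same-numbered mice correlated by 0.013, -0.0144, 0.0754 and 0.0849, so the numbers were not taken to pair the mice, and not every mouse correlated best with its own number. Library size alone moved the median log2 fold change of all tested genes to -0.13, with 262 higher and 804 lower genes against 506 and 423, and DESeq2 called more in both directions, 744 higher and 661 lower. Library size alone also turned the log2 fold changes of *Hsd3b7* to -0.11, *Slc27a5* to -0.12, *Alb* to -0.11, *Add1* to -0.0280, *Irak1* to -0.0652 and *Rhbdd2* to -0.0188, genes not called in either fit. Leaving out each mouse gave -0.0401 to 0.104 for *Hsd3b7*, -0.0119 to 0.0439 for *Slc27a5* and -0.0406 to 0.0970 for *Alb*. It gave 219 to 712 higher and 160 to 523 lower genes in all. The cause of these changes was not tested. The 6 ratios kept their direction with medians in place of means, and scaling cancels in a ratio within a mouse. With each mouse left out, the difference for *Cyp8b1* to *Cyp7a1* was 1.86 to 2.21, that for *Cyp2c70* to *Cyp8b1* -2.591 to -2.001, that for *Cyp2c70* to *Cyp7a1* -0.71 to 0.03, that for *Cyp7b1* to *Cyp7a1* 1.13 to 1.92, that for *Cyp27a1* to *Cyp7a1* 0.35 to 0.83 and that for *Cyp8b1* to *Cyp7b1* 0.20 to 0.85. Each member had 569 counts or more in each library, and each group had 4 mice.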
